A study of Mus musculus with 9 samples.

Results

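Fibroblast markers were followed in RNA-seq counts of mouse mammary tumour organoids, through 9 genes whose products are widely used to recognise fibroblasts in tissue: Pdgfra, Pdgfrb, Thy1, Dcn, Lum, Dpt, Mfap5, Fap and Pdpn. The genes were taken by symbol, and all 9 were found among the 51912 genes of the count table. The organoids came from MMTV-PyMT mammary tumours of FVB/NJ mice, in which the MMTV promoter drives the polyoma middle T oncogene in mammary epithelium. E-cad-KO organoids (n = 5) carried MMTV::PyMT, the (R26)pCA::mT/mG reporter and Cdh1fl/fl alleles. WT organoids (n = 4) carried the same oncogene and reporter with Cdh1+/+. Both groups received adeno-Cre overnight, so the WT organoids are a control for the virus and Cre as well. They then spent 48 h in 3D collagen I in medium with b-FGF2. Cre came from the virus, with no cell-type promoter named, and nothing in the labels states that fibroblasts were removed, added or sorted. RNA came from whole frozen gels. The labels call the samples biological replicates without naming the animals, so a p-value speaks here to how far these libraries scatter, which may be technical.

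Fibroblasts are the mesenchymal cells that build and remodel the interstitial matrix of the mammary gland, and in mammary tumours they are a main source of fibrillar collagen and of growth factors. PDGF receptors receive signals from platelet-derived growth factors and mark fibroblasts and related mural cells. Decorin, lumican and dermatopontin coat and space collagen fibrils, and Mfap5 belongs to the fibrillin microfibril. Fap is a surface protease best known from reactive tumour stroma, and Thy1 and Pdpn are surface glycoproteins that fibroblasts share with other cell types. Organoids are pieces of tumour epithelium, and their preparation can carry stromal cells along.

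The libraries held 44890302 to 64763645 counts, and levels are given as CPM, counts scaled to library size with TMM factors, where 1 CPM stood for 44.2 to 64.3 counts. Cdh1, the targeted gene, had 86.5, 118, 85.2, 87.3 and 79.0 CPM in E-cad-KO and 246, 150, 201 and 159 CPM in WT. The groups did not overlap, and its log2 fold change was -1.05 (edgeR quasi-likelihood test, adjusted p = 0.0275). The adjusted p was above 0.05, at 0.0644 to 0.0904, without E-cad-KO 1, 3, 4 or 5 or WT 3. The 10 luminal epithelial markers, which define the labelled tissue, summed to 4276 to 5436 CPM in E-cad-KO and 3423 to 4714 CPM in WT. A low expression filter left 17289 genes, and a gene was called when its adjusted p from edgeR's quasi-likelihood test, over all of these, was under 0.05. In E-cad-KO, 157 of them (0.908%) passed as higher and 87 (0.503%) as lower, 1.41% together. With upper-quartile scaling the split was 123 higher and 151 lower. Leaving out WT 3 left 8 higher and 1 lower, leaving out WT 4 gave 193 and 141, and leaving out any other single library lowered both counts by more than 1.5 times.

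All 9 fibroblast markers were detected in every library and passed the filter, and none was called between E-cad-KO and WT, against 1.41% of all tested genes. Their levels were spread most widely among the WT libraries. Summed over the 9 genes, the level was 127, 92.1, 150, 127 and 139 CPM in E-cad-KO and 83.7, 123, 229 and 312 CPM in WT. The E-cad-KO libraries lay close together, while WT 1 was below all of them and WT 3 and WT 4 were above all of them. The sum differed 3.72-fold between the highest and the lowest library, both of them WT. The SD of log2 CPM was larger in WT than in E-cad-KO for all 9 markers, which was so for 62.3% of all tested genes. Its median over the markers was 0.40 in E-cad-KO and 1.11 in WT, against 0.16 in E-cad-KO and 0.19 in WT over all tested genes. WT 1 was the lowest of all 9 libraries for 7 markers, against 15.7% of all tested genes, and WT 4 was the highest for 7 markers, against 20% of all tested genes. The whole E-cad-KO range fell inside the WT range for 7 markers, the exceptions being Fap and Pdpn. In bulk RNA, fewer fibroblasts and less marker RNA per fibroblast cannot be told apart.

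**Figure D1:**
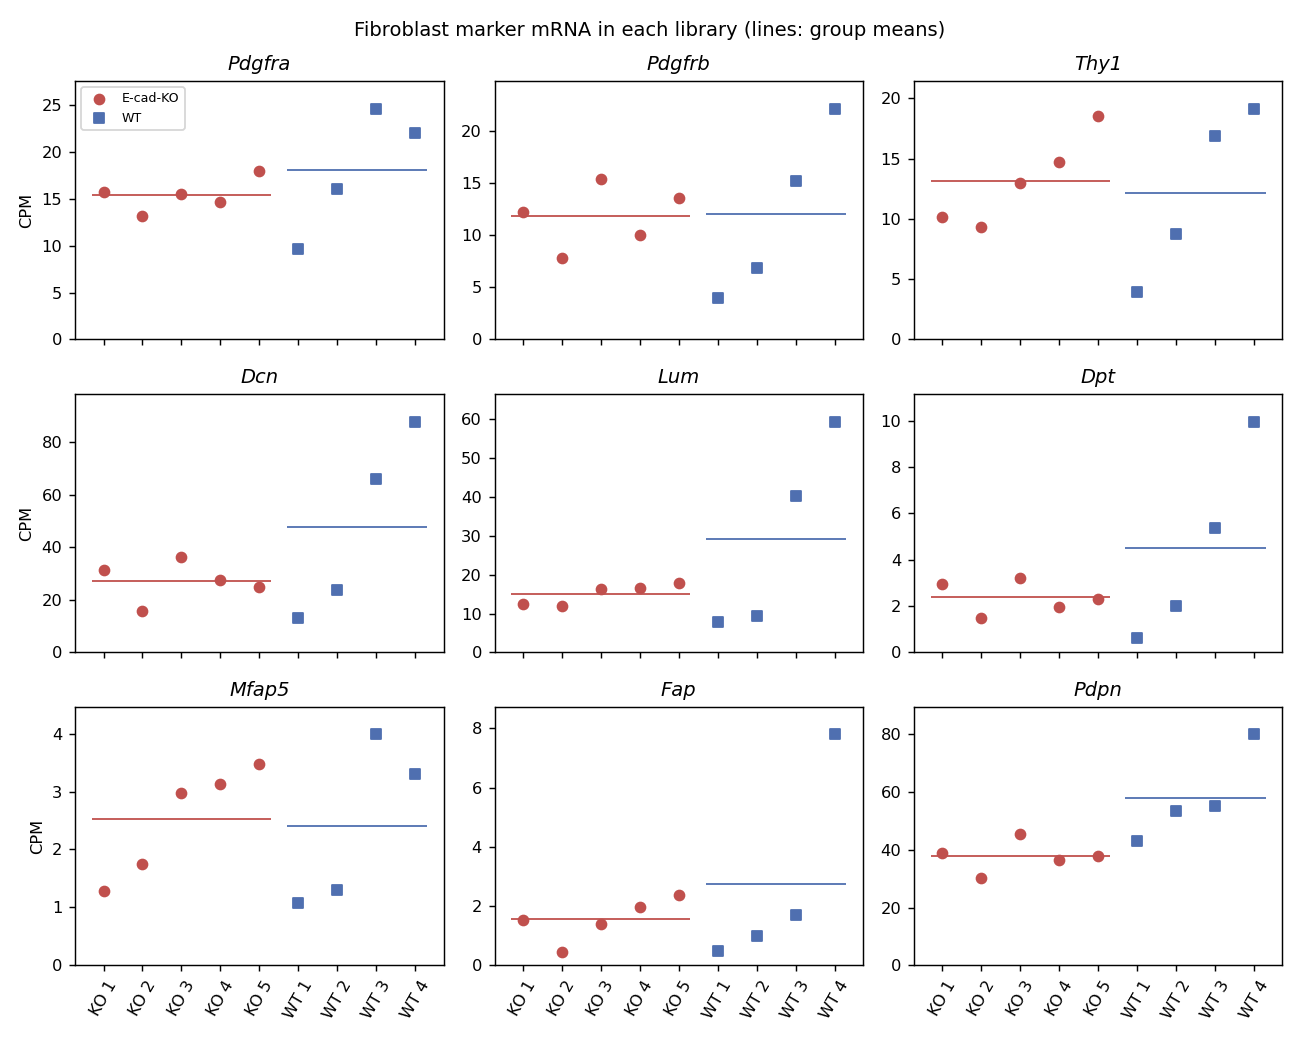
CPM of each of the 9 fibroblast markers in the 5 E-cad-KO and 4 WT libraries, each point 1 library. WT 1 lies at the bottom for 7 of the 9 genes and WT 4 at the top for 7, with the E-cad-KO libraries mostly between them.

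Per gene, the fitted log2 fold change was negative for 7 markers and positive for 2, with a median of -0.62 against -0.01 over all tested genes, of which 52% were negative. The median of the markers rested in large part on WT 4, and without it was -0.12. By DESeq2 1 marker, Pdpn, was called (6.98% of all tested genes) and by limma-voom with quality weights 0 were called (2.94%). At an unadjusted edgeR p under 0.05 there was also 1, Pdpn, against 16.7% of all tested genes. The E-cad-KO and WT libraries did not overlap for 0 of the 9 markers and for 8.11% of all tested genes.

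**Figure D2:**
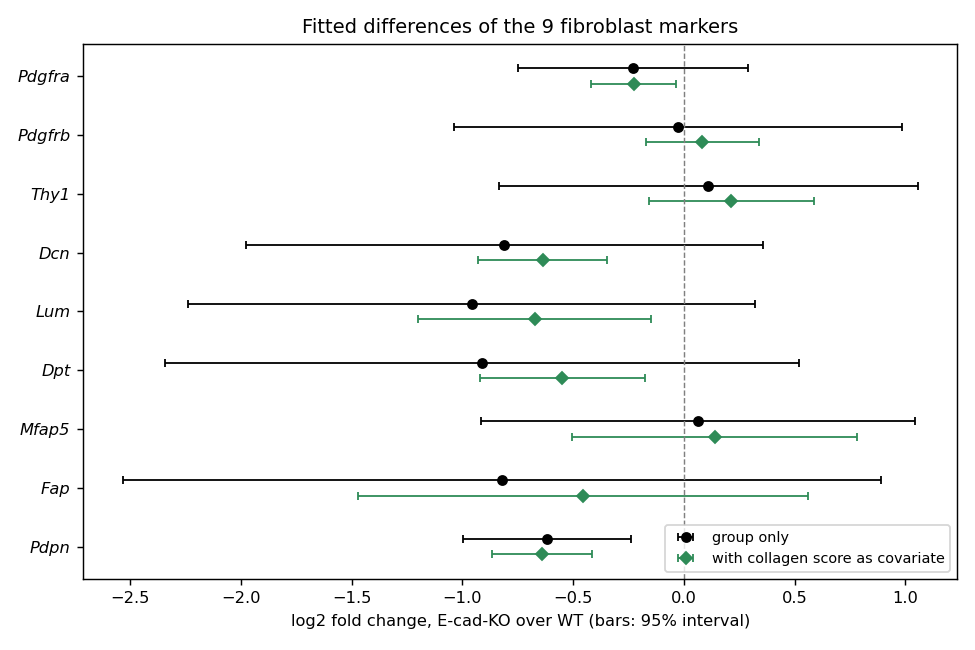
Log2 fold change of E-cad-KO over WT for the 9 fibroblast markers, with 95% intervals, from the model with group alone (circles) and from the model that also holds a fibroblast collagen score (diamonds). With group alone the intervals of 8 markers include 0 and that of Pdpn runs from -0.996 to -0.24, and with the score they narrow for all 9.

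The PDGF receptors are receptor tyrosine kinases, Pdgfra typical of fibroblasts and Pdgfrb shared by fibroblasts and pericytes. Pdgfra (ENSMUSG00000029231, GRCm38 chr5:75152292-75198215, plus strand) had 15.8, 13.2, 15.5, 14.7 and 17.97 CPM in E-cad-KO and 9.66, 16.1, 24.6 and 22.1 CPM in WT. The E-cad-KO libraries lay inside the WT range, with WT 1 lowest and WT 3 highest. E-cad-KO averaged 15.4 ± 1.75 CPM (SD, n = 5) and WT 18.1 ± 6.67 CPM (SD, n = 4), a log2 fold change of -0.23 (SE 0.23, 95% interval -0.75 to 0.29, edgeR adjusted p = 0.679). In the annotation its exons overlap Mir7025 on its own strand and Gm42802 and Gm42803 on the other strand, and the sources used here do not give the strand setting of the counting, so reads of these genes may be mixed. Pdgfrb (ENSMUSG00000024620, chr18:61045150-61085061, plus strand) had 12.2, 7.81, 15.4, 10.1 and 13.6 CPM in E-cad-KO and 4.02, 6.83, 15.2 and 22.2 CPM in WT. WT 1 and WT 2 were below every E-cad-KO library and WT 4 was above every one, while WT 3 lay within their range. The means were close, 11.8 ± 2.98 CPM in E-cad-KO and 12.1 ± 8.24 CPM in WT, and the log2 fold change was -0.03 (SE 0.45, 95% interval -1.04 to 0.99, adjusted p = 0.987), an interval too wide to fix a direction. Its sign turned in 9 of 21 alternative settings. The ratio of Pdgfra to Pdgfrb CPM, which also reflects their lengths, was 1.01 to 1.69 in E-cad-KO and 0.996 to 2.40 in WT.

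The ligands of these receptors were all tested. Pdgfa averaged 41.3 ± 7.11 CPM in E-cad-KO and 39.8 ± 3.50 CPM in WT, and Pdgfb 25.6 ± 3.56 CPM in E-cad-KO and 20.6 ± 5.91 CPM in WT. Pdgfc averaged 31.1 ± 2.28 CPM in E-cad-KO and 32.6 ± 2.67 CPM in WT, and Pdgfd 7.75 ± 1.29 CPM in E-cad-KO and 5.68 ± 0.635 CPM in WT. None of the 4 was called in either direction. Between the highest and the lowest of the 9 libraries the ligands differed 1.26-fold (Pdgfc) to 2.43-fold (Pdgfb), Pdgfra 2.55-fold and Pdgfrb 5.51-fold.

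Thy1 (ENSMUSG00000032011, chr9:44043384-44048579, plus strand) encodes a GPI-anchored surface glycoprotein of fibroblasts that mouse T cells and neurons also carry. It had 10.2, 9.36, 12.995, 14.7 and 18.5 CPM in E-cad-KO and 3.91, 8.79, 16.9 and 19.1 CPM in WT. WT 1 and WT 2 were below every E-cad-KO library and WT 4 was above every one, and the log2 fold change was 0.11 (SE 0.42, 95% interval -0.84 to 1.06, adjusted p = 0.933). The sign turned without E-cad-KO 5 (-0.04), WT 1 (-0.18) or WT 2 (-0.02). Of 8 other T cell genes, 6 were too low to test, Cd3e having 0 counts in every library and Cd3d 2 counts in all 9 libraries together. Lck made up most of the list, with 2.83 to 3.86 CPM in E-cad-KO and 2.65 to 4.12 CPM in WT, and its lowest level was in WT 4, where Thy1 was highest. The part of T cells in the level of Thy1 was not tested.

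Dcn, Lum and Dpt encode matrix proteins that bind collagen fibrils: decorin and lumican are small leucine-rich proteoglycans and dermatopontin binds decorin. Dcn (ENSMUSG00000019929, chr10:97479609-97518143, plus strand) had 31.5, 15.9, 36.2, 27.4 and 24.8 CPM in E-cad-KO and 12.9, 23.8, 65.9 and 87.8 CPM in WT. WT 3 and WT 4 were above every E-cad-KO library and WT 1 was below every one. Dcn averaged 27.2 ± 7.65 CPM in E-cad-KO and 47.6 ± 35.2 CPM in WT, with a log2 fold change of -0.81 (SE 0.51, 95% interval -1.98 to 0.36, adjusted p = 0.479). Without WT 4 the log2 fold change was -0.34. Lum (ENSMUSG00000036446, chr10:97565128-97572703, plus strand) is the next annotated gene after Dcn, its start 85519 bases further along. It had 12.3, 11.8, 16.4, 16.6 and 17.96 CPM in E-cad-KO and 7.85, 9.43, 40.2 and 59.5 CPM in WT. The WT libraries split into a pair below and a pair above every E-cad-KO library. The means were 15.04 ± 2.76 CPM in E-cad-KO and 29.2 ± 25.1 CPM in WT, and the log2 fold change was -0.96 (SE 0.56, 95% interval -2.24 to 0.32, adjusted p = 0.443), or -0.35 without WT 4.

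Dpt (ENSMUSG00000026574, chr1:164796644-164824266, plus strand) was a low gene, with 87 to 168 counts per E-cad-KO library and 37 to 546 per WT library. It had 2.95, 1.47, 3.21, 1.97 and 2.32 CPM in E-cad-KO and 0.628, 1.99, 5.36 and 9.97 CPM in WT, again with WT 1 lowest and WT 3 and WT 4 above all E-cad-KO libraries. The log2 fold change was -0.91 (SE 0.64, 95% interval -2.34 to 0.52, adjusted p = 0.523), and -0.16 without WT 4. Within WT its level differed 15.9-fold between WT 4 and WT 1. Promoter sequences in the RefSeq table (GRCm38.p6, 250 bases before to 50 after the start) matched 3 of the 9 markers, Dpt, Pdgfra and Pdpn. Dpt and Pdpn are printed because they stand at opposite ends of how strongly the markers moved among WT libraries, 15.9-fold for Dpt and 1.85-fold for Pdpn. The Dpt promoter (chr1:164796413-164796712, plus strand) and the Pdpn promoter (chr4:143299515-143299814, minus strand) are given 5′ to 3′ in lower case, with matches to the searched motifs in capitals.
Dpt: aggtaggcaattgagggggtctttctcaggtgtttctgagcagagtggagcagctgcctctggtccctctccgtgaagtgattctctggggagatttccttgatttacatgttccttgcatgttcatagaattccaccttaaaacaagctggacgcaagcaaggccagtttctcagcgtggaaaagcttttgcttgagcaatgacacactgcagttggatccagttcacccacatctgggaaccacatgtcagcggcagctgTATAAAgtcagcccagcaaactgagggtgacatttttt
Pdpn: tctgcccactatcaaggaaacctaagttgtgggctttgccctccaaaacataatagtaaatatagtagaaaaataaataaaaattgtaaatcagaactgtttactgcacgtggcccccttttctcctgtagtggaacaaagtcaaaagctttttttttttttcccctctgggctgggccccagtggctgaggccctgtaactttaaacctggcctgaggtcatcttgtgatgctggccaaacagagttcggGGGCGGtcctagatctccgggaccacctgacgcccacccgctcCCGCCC
Both strands were searched for the TATA motif written as TATAAA, for the AP-1 motif written as TGANTCA, for the TEAD motif written as GGAATG and for the Sp1 motif written as GGGCGG. The capitals in Dpt are a TATAAA match 12 bases after the RefSeq start, which lies downstream of the gene start given above. TATAAA was present in 13.6% of the 32851 promoters of the table. The capitals in Pdpn are 2 GGGCGG matches, 1 and 44 bases after the start, the second on the other strand, and 35.7% of promoters held that motif. AP-1 letters occurred in 7.81% and TEAD letters in 14.7% of promoters, and neither in these windows. No 2 matches overlapped. GC content was 48.7% in both, below the median of 52.7% over all promoters. Such matches describe letters and do not show binding.

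Of the other small leucine-rich proteoglycans, 5 of 10 were expressed enough to test and none was called. Bgn, biglycan, the closest relative of decorin, had the highest CPM of them, at 73.6 ± 16.4 CPM in E-cad-KO and 83.7 ± 58.7 CPM in WT. Aspn, asporin, averaged 2.72 ± 1.35 CPM in E-cad-KO and 3.55 ± 3.01 CPM in WT. Prelp averaged 3.50 ± 1.67 CPM in E-cad-KO and 2.19 ± 0.873 CPM in WT, and WT 4, highest for most markers, was lowest for Prelp at 0.913 CPM. Fmod, Ogn, Omd, Epyc and Kera were too low to test, with at most 21 counts in any library.

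Mfap5 (ENSMUSG00000030116, chr6:122505845-122529290, plus strand) encodes a small glycoprotein of fibrillin microfibrils. It had 1.28, 1.74, 2.98, 3.13 and 3.48 CPM in E-cad-KO and 1.07, 1.29, 3.99 and 3.30 CPM in WT. Both groups spread over similar ranges, with WT 3 the highest library. The log2 fold change was 0.06 (SE 0.44, 95% interval -0.92 to 1.05, adjusted p = 0.965), and its sign turned in 6 of 21 alternatives, so that no direction can be given. None of the 10 other microfibril and elastic fibre genes was called, and their summed level was 93.6 to 110 CPM in E-cad-KO and 67.7 to 126 CPM in WT. Fbn1, fibrillin-1, shared its lowest and highest WT library with most fibroblast markers, having 13.3, 9.11, 14.1, 11.4 and 13.8 CPM in E-cad-KO and 3.19, 7.81, 18.6 and 20.9 CPM in WT. Of the 10 genes, 5 were lowest in WT 1 and 6 highest in WT 4. Others differed from Fbn1: Fbln5 averaged 41.2 CPM in E-cad-KO and 31.1 CPM in WT and was highest in E-cad-KO 5. Efemp2 averaged 32.5 CPM in E-cad-KO and 32.2 CPM in WT, and Fbn2 1.21 CPM in E-cad-KO and 0.468 CPM in WT.

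Fap (ENSMUSG00000000392, chr2:62500943-62574075, minus strand) encodes a membrane serine protease of reactive fibroblasts. Fap had 27 to 427 counts per library, and the SE of its log2 fold change was the largest among the markers. It had 1.53, 0.456, 1.401, 1.97 and 2.38 CPM in E-cad-KO and 0.493, 0.972, 1.71 and 7.79 CPM in WT. WT 4 stood far above the other 8 libraries, and the other WT libraries lay within the E-cad-KO range. The log2 fold change was -0.82 (SE 0.76, 95% interval -2.53 to 0.89, adjusted p = 0.652) and turned to 0.55 without WT 4. Dpp4, the nearest relative of Fap, on the same chromosome, was called lower. It had 5.55, 7.01, 4.97, 5.98 and 6.39 CPM in E-cad-KO and 10.7, 9.91, 10.3 and 8.01 CPM in WT, with no overlap between the groups, and its log2 fold change was -0.70 (SE 0.13, adjusted p = 0.0348). Dpp8, Dpp9 and Prep were not called. Dpp4 had its lowest WT level in WT 4, where Fap was highest. Its call was lost, at adjusted p of 0.0534 to 0.115, without any 1 library other than WT 4.

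Pdpn (ENSMUSG00000028583, chr4:143267431-143299564, minus strand) encodes podoplanin, a mucin-like glycoprotein that binds the platelet and dendritic cell receptor CLEC-2 and is also made by lymphatic endothelium and some basal epithelial cells. It had 38.8, 30.4, 45.6, 36.6 and 37.8 CPM in E-cad-KO and 43.1, 53.5, 55.3 and 80.0 CPM in WT. The groups overlapped by 1 library on each side, E-cad-KO 3 lying above WT 1. E-cad-KO averaged 37.8 ± 5.42 CPM (SD, n = 5) and WT 58.0 ± 15.6 CPM (SD, n = 4). The log2 fold change was -0.62 (SE 0.17, 95% interval -0.996 to -0.24) with an edgeR adjusted p of 0.105, so Pdpn was not called in the main test, while DESeq2 gave an adjusted p of 0.00935 and limma-voom 0.0595. Its direction was the same in all 21 alternatives, from -0.73 without WT 1 to -0.42 without WT 4. Levels were also taken per kilobase of exon, the length being the union of exons over all annotated transcripts. So scaled, Pdpn was the highest of the 9 markers in both groups, at 20.8 ± 2.98 CPM per kb in E-cad-KO and 31.9 ± 8.60 CPM per kb in WT. Lum followed with 6.14 CPM per kb in E-cad-KO and 11.9 in WT, and Fap was lowest with 0.273 CPM per kb in E-cad-KO and 0.484 in WT. The union lowers genes with many transcripts, so this order is rough. By mean CPM, Dcn (5 transcripts) stood above Lum (1 transcript) in both groups. Lymphatic endothelial genes were low. Lyve1 had at most 25 counts in a library, and the 6 lymphatic genes other than Pdpn summed to 2.06 to 3.30 CPM in E-cad-KO and 1.43 to 2.32 CPM in WT. The 10 myoepithelial genes summed to 3679 to 8434 CPM in E-cad-KO and to 12481, 8361, 5735 and 2554 CPM in WT 1 to WT 4, a sum made mostly of Krt14. Within WT it stood in the reverse order of Pdpn, but 6 of the 10 genes were lowest in WT 1 and 5 highest in WT 4. None of the 10 was called, and their part in the level of Pdpn was not tested.

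The markers moved together from library to library. Over the 9 libraries, Pearson's r of log2 CPM was positive for all 36 pairs of markers, with a median of 0.81 and a range of 0.27 to 0.97. By exact permutation over the orderings of the 9 libraries, with Benjamini-Hochberg adjustment over the 36 pairs, 26 pairs passed an adjusted p of 0.05 with Pearson's r and 13 with Spearman's rho. The share of passing pairs over all tested genes is not given here, so these counts do not set the markers apart from other genes. The closest pair was Dcn and Dpt (r = 0.97, rho = 0.95, exact permutation adjusted p = 5.95e-04 for r and 0.00635 for rho). Over all 9 libraries Pdpn had the lowest median: its 8 pairs had a median r of 0.62 and 1 of them passed, with Dcn (r = 0.76, exact permutation adjusted p = 0.0262 for r, and 0.112 for rho = 0.60), against a median of 0.84 and 25 passing among the 28 pairs without it. When the 2 libraries farthest from the median of the first gene were left out, all 28 pairs without Pdpn stayed positive with a median of 0.75, Dcn and Dpt at 0.94. Of the 8 pairs with Pdpn 5 stayed positive, and the pairs with Lum (-0.34), Fap (-0.31) and Mfap5 (-0.02) turned negative. Dcn with Pdpn was at 0.25 without WT 3 and WT 4. These reduced sets still hold both groups. Within E-cad-KO alone (n = 5) the same 4 pairs were positive, at 0.54 for Lum, 0.63 for Fap, 0.34 for Mfap5 and 0.95 for Dcn with Pdpn. The covariation was looser there: over all 36 pairs the median r was 0.62 in E-cad-KO alone and 0.93 in WT alone (n = 4). In E-cad-KO alone Dpt with Mfap5 was at 0.04 and Thy1 with Dpt at 0.19. After each group's mean was removed, the median over the 36 pairs was 0.88 and the lowest 0.57. The median of the pairs with Pdpn was then 0.81, and Mfap5 had the lowest, 0.76. All pairs share the same libraries and their scaling, so the 36 values are not independent.

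**Figure D3:**
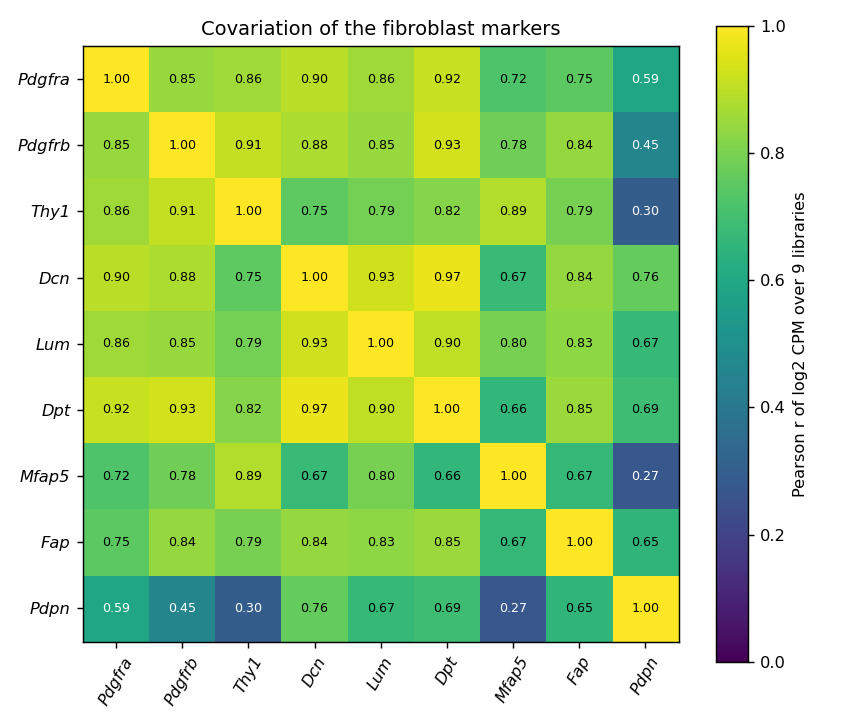
Pearson's r of log2 CPM between the 9 fibroblast markers over the 9 libraries (5 E-cad-KO, 4 WT), as colour and number. All 36 pairs are positive, Dcn with Dpt is the highest at 0.97, and the row of Pdpn is the darkest, down to 0.27 with Mfap5.

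For each marker the 5 most alike of 14060 tested genes were listed by Pearson's r over the 9 libraries, as a description. Dcn was closest to Adam33 (0.99), a metalloprotease gene, and to Serpinf1 (0.99), which encodes pigment epithelium-derived factor. Dpt was closest to Tns1 (0.99) and Mmp2 (0.99), a gelatinase of stromal cells, and Adam33 was among its 5 as well. Pdgfrb was closest to P4ha3 (0.99), a collagen prolyl hydroxylase subunit, with Bgn (0.98) and Fstl1 (0.98) also listed. Lum was closest to Crabp1 (0.99), a retinoic acid binding protein, and Grem1 (0.97), a BMP antagonist. Thy1 stood nearest to Cdh11 (0.98), a mesenchymal cadherin, and to Rgs5 (0.97), a pericyte gene, while Pdgfra stood nearest to Gypc (0.97) and Tmem119 (0.95). Fap was closest to Frzb (0.996), a secreted WNT antagonist, and its list also held Cd36 (0.98), Clec4d (0.97) and Cd300lb (0.97), the last 2 being genes of myeloid cells. Pdpn had a different set, Slc7a8 (0.98), Calcrl (0.98), Arhgdib (0.95), Clca3a2 (0.94) and Pecam1 (0.94), of which Calcrl and Pecam1 are genes of endothelium. Mfap5 had the loosest companions, led by Rian (0.92), a noncoding RNA, and Dkk2 (0.91), a WNT antagonist.

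Other stromal and immune genes were compared with the markers library by library. The 10 fibroblast collagens, among them Col1a1 and Col3a1, summed to 250, 195, 321, 215 and 294 CPM in E-cad-KO and to 76.2, 178, 389 and 450 CPM in WT, the same order of WT libraries as the markers, and none of the 10 was called. Macrophage genes summed to 51.5, 26.7, 33.1, 116 and 159 CPM in E-cad-KO and to 17.6, 41.4, 96.0 and 386 CPM in WT. All 12 macrophage genes were highest in WT 4, and none was called. Blood endothelial genes summed to 5.56 to 9.79 CPM in E-cad-KO and to 6.78, 9.32, 16.1 and 17.4 CPM in WT, with 0 of 8 tested genes called. Adipocyte genes summed to 4.495 to 10.3 CPM in E-cad-KO and to 5.52, 7.49, 12.5 and 45.7 CPM in WT. Most of that sum was Fabp4 and Pparg, as 4 of the 6 genes were too low to test. Adipoq, the adipocyte hormone adiponectin, had 54 of its 57 counts in WT 4. Pericyte genes summed to 119 to 128 CPM in E-cad-KO and to 118 to 163 CPM in WT, with 0 of 8 tested called. Most of that sum was Notch3 and Mcam. Rgs5, typical of pericytes, had 5.44, 3.80, 7.14, 12.2 and 10.5 CPM in E-cad-KO and 1.32, 4.44, 10.3 and 17.7 CPM in WT, with the same lowest and highest library as most fibroblast markers. Of the 8 tested pericyte genes, 3 were lowest in WT 1 and 4 highest in WT 4. The part of these other cell types in the spread of the fibroblast markers among WT libraries was not tested.

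**Figure D4:**
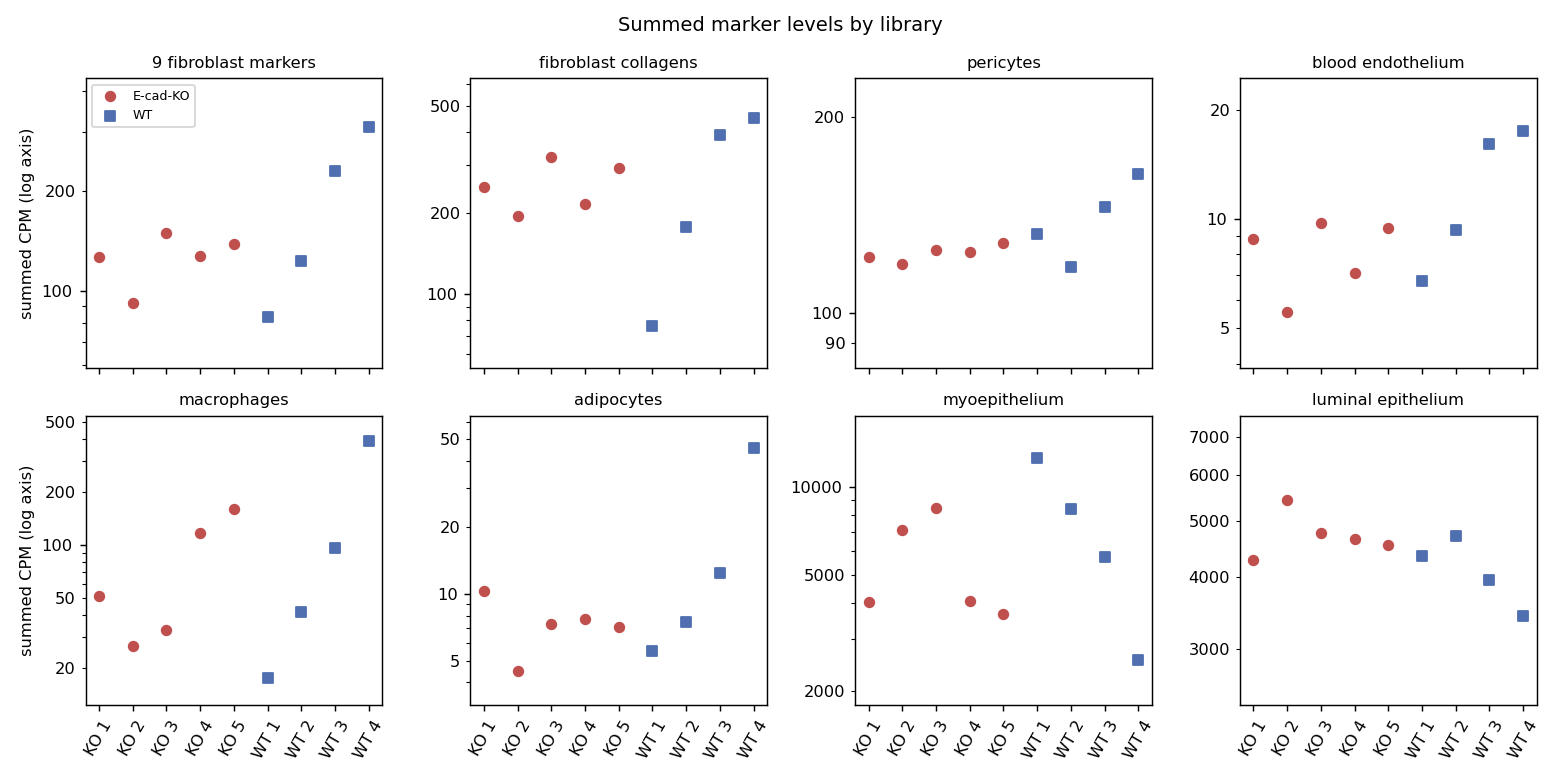
Summed CPM (log axis) of the 9 fibroblast markers and of 7 other marker lists in each library, E-cad-KO 1 to 5 on the left and WT 1 to 4 on the right of each panel. Markers, collagens, endothelial and macrophage genes are lowest in WT 1 among the WT libraries and highest in WT 4, and the myoepithelial sum, mostly Krt14, is at 12481 CPM in WT 1 and 2554 CPM in WT 4.

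The marker levels were also taken relative to the mean log2 CPM of the 10 collagens, an analysis chosen after the data had been seen. Dcn was lower relative to the collagens in all 5 E-cad-KO libraries, 4.65 ± 0.26 in E-cad-KO and 5.28 ± 0.21 in WT on the log2 scale (SD), and the groups did not overlap. Among all tested genes 0.174% did not overlap and were lower in E-cad-KO, and Dcn was the sole marker of the 9 to do so. In either direction, 8.11% of all tested genes did not overlap before the collagen mean was subtracted and 0.226% after. The low share thus reflects the subtraction as well, and does not by itself set Dcn apart. With the collagen score as a covariate in edgeR, 2 of the 9 markers were called lower, against 1.04% of all tested genes called lower and 1.99% called higher. Dcn had a log2 fold change of -0.64 (SE 0.13, edgeR adjusted p = 0.0340) and Pdpn of -0.64 (SE 0.10, edgeR adjusted p = 0.0147). The call of Dcn was lost without E-cad-KO 1 (where the adjusted p was 0.0623), E-cad-KO 2 (at 0.0631), E-cad-KO 5 (at 0.0675), WT 1 (at 0.160), WT 3 (at 0.0708) or WT 4 (at 0.110), with log2 fold changes from -0.70 to -0.49 over all 9 libraries left out in turn. The call of Pdpn was lost without WT 1 (adjusted p = 0.0796) or WT 4 (0.0505). With a macrophage score as the covariate, Pdpn was the 1 marker called lower, against 2.86% of all tested genes called lower and 4.19% called higher. With the collagen score the other 7 markers were not called, Lum at -0.67 (adjusted p = 0.157, and called at -0.86 with 0.0354 without WT 2) and Dpt at -0.55 (adjusted p = 0.109) being nearest in size, and Pdgfra at -0.23 (adjusted p = 0.183), Pdgfrb at 0.08 (adjusted p = 0.763) and Thy1 at 0.21 (adjusted p = 0.539) smaller. The ratio of Dcn to its relative Bgn was 0.412, 0.306, 0.372, 0.399 and 0.336 in E-cad-KO and 0.517, 0.546, 0.555 and 0.596 in WT. This ratio was picked after its values were seen and is given as a description. All E-cad-KO values lay below all WT values, as did 0.139% of tested genes taken relative to Bgn, a share also measured after subtraction. The WT libraries differed 6.79-fold in Dcn itself. Ratios of Dcn to Lum, Col1a1 and Pdgfra overlapped between the groups. Dcn to Lum was 1.34 to 2.55 in E-cad-KO and 1.48 to 2.53 in WT. Dcn to Col1a1 was 0.627 to 1.33 in E-cad-KO and 1.24 to 3.21 in WT. Dcn to Pdgfra was 1.20 to 2.34 in E-cad-KO and 1.34 to 3.98 in WT.

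**Figure D5:**
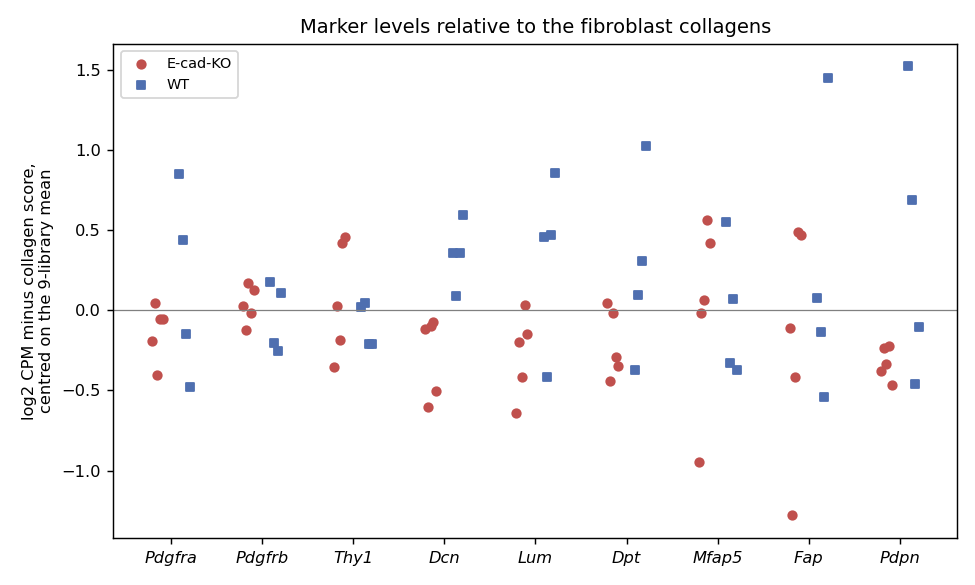
Log2 CPM of each fibroblast marker minus the mean log2 CPM of 10 fibroblast collagens, centred on the mean of all 9 libraries, for E-cad-KO (left of each pair) and WT. Dcn is the sole marker whose 5 E-cad-KO points all lie below its 4 WT points.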

How the data were processed

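Per the labels, RNA was extracted with the RNeasy kit and libraries were made with an Illumina TruSeq stranded mRNA kit. Per the submitters' processing notes, Bowtie2, TopHat2, HTSeq and the GRCm38 build were used. For versions, annotation release and strand setting: not given in the sources used here. The authors deposited 1 table of whole-number counts per gene, not normalized.

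From these counts, edgeR 4.0.16 in R 4.3.3 fitted group alone to all 9 libraries (TMM, filterByExpr, robust quasi-likelihood F-test, Benjamini-Hochberg over 17289 genes). The genes and lists were chosen with earlier results of these data known. Genes named from other lists were the 3 with the highest mean CPM, the 3 with the smallest p and every called gene, of which those bearing on a marker are given. log2 CPM used a prior count of 2. Gene positions and exon lengths came from GENCODE M21 (GRCm38). Any 2 libraries differed by a chi-square of at least 14.4 per degree of freedom, so none was counted as a duplicate. The lowest markers, Fap, Dpt and Mfap5, had 27 to 546 counts per library. DESeq2 1.42.0, limma 3.58.1, other scalings and filters, left-out libraries and a replicate block were alternatives, and 2 covariates were added after the data had been seen. The scripts were tested on simulated data.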

Additional observations from a re-analysis of the deposited data

Results flagged for a closer look

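Values were looked at again where 1 library stood apart from the rest of its group by Dixon's criterion, which chance meets in about 1 in 20 groups. Of 60 groups of values checked, 3 met it. Fap in WT 4, at 7.79 CPM, stood apart from the other WT libraries, which had 0.493 to 1.71 CPM. The summed level of the other fibroblast genes in E-cad-KO 3, at 918 CPM, stood apart from the 562 to 656 CPM of the other E-cad-KO libraries. Cdh1 in E-cad-KO 2, at 118 CPM, stood apart from the 79.0 to 87.3 CPM of the other E-cad-KO libraries, and it was still below all WT libraries.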

How the results depend on the processing

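No marker was called higher in any of 21 alternatives, and markers were called lower in 3 of them: 1 by DESeq2 (Pdpn), 2 with the collagen score (Dcn and Pdpn) and 1 with the macrophage score (Pdpn, -0.57, adjusted p = 0.0340). All 36 marker pairs stayed positively correlated in 12 alternatives, and 33 did when the 2 farthest libraries of each pair were left out. The counts over all genes moved more. DESeq2 called 714 higher and 492 lower, limma-voom 294 and 215, the collagen score 344 and 179, and the macrophage score 724 and 495. Upper-quartile scaling called 151 lower and a filter of 1 CPM in 4 libraries 135 lower. A minimum fold of 1.5 left 0 and 0, and leaving out both WT 1 and WT 4 left 48 and 31. Leaving out single libraries gave 8 to 193 higher and 1 to 141 lower. With the replicate number as a block, 0 genes were called higher and 0 lower, and no marker was called. Same-numbered libraries correlated at -0.32, 0.23, -0.03 and 0.28, and not every library matched its own number best. The labels do not state that the numbers pair the samples, and these few values cannot settle it. E-cad-KO 5 has no same-numbered WT library.

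Signs turned for 4 markers that were not called in any of the settings, and the cause was not tested. Pdgfrb was 0.23 by limma-voom, 0.15 with the replicate block, 0.10 without WT 1 and WT 4, 0.084 with the collagen score and 0.28 with the macrophage score, and -0.31 to 0.44 with single libraries left out. Fap was 0.050 by limma-voom, 0.21 without WT 1 and WT 4, and -1.16 to 0.55 with single libraries left out. Mfap5 was -0.063 without WT 1 and WT 4 and -0.18 to 0.42 with single libraries left out, and Thy1 -0.18 to 0.41. Other markers kept a negative value in all 21 alternatives. Dpp4 was called in 10 of 21 alternatives and Cdh1 in 13 of 21, both lower in all 21.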

Other observations

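Among fibroblast state genes, against 0.908% of all tested genes called higher, each of 2 lists held 1. Of 12 myofibroblast genes, Tnc, the matrix glycoprotein tenascin C, was called higher, at 193 ± 21.2 CPM in E-cad-KO and 142 ± 7.54 CPM in WT (log2 fold change 0.44, edgeR adjusted p = 0.0356). Of 12 inflammatory fibroblast genes, Ptgs2, the prostaglandin synthase COX-2, was called higher, at 263 ± 21.3 CPM in E-cad-KO and 160 ± 28.5 CPM in WT (log2 fold change 0.71, edgeR adjusted p = 0.0267). Over WT 1 to WT 4 the inflammatory list summed to 550, 536, 521 and 479 CPM and the myofibroblast list to 1512, 2457, 2491 and 2012 CPM. The myofibroblast list shares Acta2 and Cnn1 with the myoepithelial list, so its sum cannot be assigned to fibroblasts. The 9 fibroblast markers rose from 83.7 to 312 CPM over the same libraries. Which cells made Tnc and Ptgs2 was not tested. The call of Tnc was lost without any 1 library other than WT 4 (adjusted p 0.0518 to 0.0973), and that of Ptgs2 without E-cad-KO 1, 2, 3 or 4, WT 2 or WT 3 (adjusted p 0.0520 to 0.0791). Of 23 tested other fibroblast genes none was called, 17 having negative and 6 positive log2 fold changes with a median of -0.18. Those with the highest CPM were Mmp3, which encodes stromelysin and had 286 CPM in E-cad-KO 3 and 312 CPM in WT 3, and Ly6a, which encodes the surface antigen Sca-1 and had 241 CPM in E-cad-KO 3 and 216 CPM in WT 1.

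Of 6 neutrophil genes 3 were tested and none was called. Their sum, 29.7 to 51.5 CPM in E-cad-KO and 35.7 to 191 CPM in WT, was almost wholly S100a8, which had 184 CPM in WT 1, while Cxcr2 was lowest in WT 1 at 0.068 CPM, Csf3r was highest in WT 4 at 0.548 CPM, and Ly6g had 3 counts and Retnlg 1 count in all. T cell genes summed to 2.93 to 4.10 CPM in E-cad-KO and 3.14 to 4.33 CPM in WT, B cell genes to 0.237 to 0.497 CPM in E-cad-KO and 0.148 to 0.420 CPM in WT, and Schwann cell genes to 121 to 150 CPM in E-cad-KO and 114 to 132 CPM in WT, mostly Sox10, with no gene called in any of these lists.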
